A study of Mus musculus with 54 samples.

Results

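The methyl-CpG-binding domain genes Mbd1, Mbd2, Mbd3, Mbd4, Mbd5 and Mbd6 were examined in the brains of mice that carry a gene-trap insertion in 1 copy of Mbd5. The members were chosen by name, and all 6 were found among the 47069 genes counted. Cortex, striatum and cerebellum were taken at 8 weeks of age from 10 mice with the trap (Mbd5+/GT) and from 8 wild-type (WT) littermates, which gave 54 RNA-seq libraries, 1 per region and mouse. The mice were on a C57BL/6 background. Mbd5+/GT mice were heterozygous for the trap construct pU-21B in intron 2 of Mbd5, a hypomorphic allele that lowers but does not abolish expression, and the WT mice carried no trap. Of the 3 litters, the first contributed 3 mice of each genotype, the second 4 Mbd5+/GT mice and 1 WT mouse, and the third 3 and 4. The Mbd5+/GT mice were 5 females and 5 males, and the WT mice 5 females and 3 males. Mice of the first litter were all female and those of the second all male, and the third held both sexes.

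Proteins of this family share a fold that in MBD1, MBD2 and MBD4 binds methylated CpG sites in DNA. MBD2 and MBD3 are alternative subunits of the NuRD complex, which couples nucleosome remodelling to histone deacetylation, and the MBD3 domain has lost most of its preference for methylated DNA. MBD1 works with the histone methyltransferase SETDB1, and MBD4 is a DNA glycosylase that removes thymine formed by deamination of methylated cytosine. MBD5 and MBD6 are a pair of related proteins that associate with the PR-DUB complex, a deubiquitinase of histone H2A built around BAP1 and ASXL proteins, and heterozygous loss of MBD5 causes a human neurodevelopmental disorder. Because MBD6 is the closest relative of MBD5, the design allows the question of whether Mbd6 or another member was higher where Mbd5 was reduced.

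On the GRCm38 build, Mbd3 (ENSMUSG00000035478) and Mbd6 (ENSMUSG00000025409) lie on the reverse strand of chromosome 10, from 80392539 to 80399550 and from 127281956 to 127289018. Mbd4 (ENSMUSG00000030322) lies on the reverse strand of chromosome 6 from 115840697 to 115853371. Mbd5 (ENSMUSG00000036792) is the longest, spanning positions 48949508 to 49325405 of chromosome 2 on the forward strand, with 15 annotated transcripts. Of those, 8 start upstream of the internal RefSeq start site at 49245900 and 7 start at or after it, 296392 bases downstream of the first start. Gene counts sum over all of these transcripts, so a read from a transcript that starts downstream of intron 2 counts towards Mbd5 like any other.

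The sequence upstream of the start site is shown for Mbd5, the trapped gene, for its relative Mbd6, and for Mbd3 and Mbd4, whose levels differed most between regions. Each run, from RefSeq promoters on GRCm38.p6, is written 5′ to 3′ on the strand of its gene and is limited to bases outside every annotated exon. CpG dinucleotides, the sites that the family is named for, are in capitals.
Mbd5, chr2:48949277-48949507, forward strand: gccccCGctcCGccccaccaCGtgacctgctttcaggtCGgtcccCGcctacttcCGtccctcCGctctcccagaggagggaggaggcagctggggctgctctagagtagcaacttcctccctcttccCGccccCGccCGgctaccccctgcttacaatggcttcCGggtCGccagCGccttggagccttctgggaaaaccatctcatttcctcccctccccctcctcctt
Mbd6, chr10:127289019-127289268, reverse strand: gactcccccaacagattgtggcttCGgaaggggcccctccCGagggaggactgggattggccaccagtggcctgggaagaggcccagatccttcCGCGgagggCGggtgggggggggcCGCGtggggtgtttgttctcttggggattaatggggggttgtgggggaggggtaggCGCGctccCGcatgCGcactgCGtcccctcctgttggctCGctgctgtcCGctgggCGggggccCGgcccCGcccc
Mbd3, chr10:80399551-80399781, reverse strand: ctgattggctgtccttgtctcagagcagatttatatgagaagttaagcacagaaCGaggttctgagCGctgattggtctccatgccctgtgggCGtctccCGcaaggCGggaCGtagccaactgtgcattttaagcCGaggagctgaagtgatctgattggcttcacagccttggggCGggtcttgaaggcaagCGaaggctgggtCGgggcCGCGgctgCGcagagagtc
Mbd4, chr6:115853372-115853469, reverse strand: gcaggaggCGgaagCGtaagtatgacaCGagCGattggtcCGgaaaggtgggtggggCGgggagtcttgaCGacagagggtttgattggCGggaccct

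The full 250 bases before the first Mbd5 start held 16 CpG (CG on either strand), and 25.4% of the 32851 RefSeq windows of this length held at least as many. The windows of Mbd6 (at the start shown), Mbd3 and Mbd4 held 17, 14 and 22 CpG, against a median of 6 over all windows, and the window of a further Mbd6 start held 32. The window before the internal Mbd5 start overlapped annotated exons and is not shown. It held 4 CpG, a number reached by 62.2% of windows. On the far side of the printed Mbd5 stretch lies an exon of Orc4, a subunit of the origin recognition complex, on the opposite strand, and the Mbd4 stretch ends at an exon of Ift122, an intraflagellar transport gene. Mbd1 (ENSMUSG00000024561), on the forward strand of chromosome 18 from 74267605 to 74282732, and Mbd2 (ENSMUSG00000024513), on the same strand from 70568189 to 70626131, are named without sequence. Orc4 shared 136 exonic bases with Mbd5, 0.693% of the exonic length of Mbd5, and the antisense gene Gm44206, with a median count of 0, shared 264 bases with Mbd4. The strand setting of the counts is not given in the sources used here, so reads in these bases cannot be assigned to 1 gene.

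Library totals ranged from 25295973 to 49027399 reads assigned to genes. The lowest count of any member in any library was 178, for Mbd4 in a striatum library, and Mbd3 reached 4681. Of the libraries, 4 stood apart from their label. The summed level of 6 cerebellar markers (Pcp2, Calb1, Gabra6, Cbln1, Zic1 and Car8) was 44.3 RPKM in the cerebellum library of Mbd5+/GT mouse M755, within the 20.6 to 65.4 RPKM seen in cortex and striatum libraries, and 509 RPKM in that of WT mouse M754, whereas the other 16 cerebellum libraries lay between 1110 and 1816 RPKM. The same 2 libraries had the highest summed level of 5 oligodendrocyte markers in cerebellum, 4362 and 2618 RPKM against group medians of 936 and 861 RPKM. Summed striatal markers (Drd1, Drd2, Adora2a, Ppp1r1b and Rgs9) were 29.8 and 87.8 RPKM in the striatum libraries of WT mice M754 and M761, against a median of 566 RPKM over the 18 striatum libraries. These 4 libraries were kept, and the values that turn on them are also given without them, a choice made after seeing the data; summed levels of the family are given with them only. The other striatum libraries ranged from 196 to 1346 RPKM for these markers, and 4 choroid plexus markers ranged from 7.08 to 4918 RPKM over striatum; their part in the results was not tested. In bulk tissue, fewer cells of a type and less RNA per cell cannot be told apart.

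Levels are given as RPKM, reads per kilobase of exon scaled to library size with TMM factors, which allows members of different length to be compared. Mbd3 was by far the most abundant member in WT mice, with 42.3 ± 7.06 RPKM in cortex, 64.8 ± 8.07 in striatum and 44.8 ± 12.6 in cerebellum (mean ± SD, n = 8 mice). Mbd6 followed with means of 14.8, 18.6 and 18.2 RPKM, then Mbd2 with 11.9, 13.9 and 11.3 RPKM in the same order of regions. Mbd1 lay between 3.91 and 4.93 RPKM. The lowest positions belonged to Mbd5 and Mbd4, and here the regions differed: Mbd5 was above Mbd4 in cortex (3.36 against 2.66 RPKM) and striatum (2.45 against 1.63), and below it in cerebellum (2.80 against 3.76).

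Neighbours in this order differed within mice beyond their spread in 15 of 15 pairs (exact sign-flip permutation test on log2 RPKM, two-sided, Benjamini-Hochberg adjusted over 15 pairs, largest adjusted p = 0.016). Leaving out the libraries low in their own markers, 15 of 15 differed as well (largest exact adjusted p = 0.031). The smallest unadjusted p that 8 mice allow in this test is 0.0078. Without those libraries each striatum pair had 6 mice and stood at 0.031, the smallest value that 6 mice allow. The pairs were neighbours in the order of means of the same libraries, so the data chose which pairs were tested. The closest pair was Mbd6 over Mbd2 in cortex, higher by 0.31 ± 0.19 log2 units in 7 of 8 mice. Order depends on the length used. With the longest annotated transcript in place of all exonic bases, 12 of 15 neighbours differed, Mbd2 was above Mbd6 in cortex, and Mbd5 stood at 7.71 RPKM in cortex, beside Mbd1 at 7.59 RPKM. On that scale Mbd5 was above Mbd4 in each region, cerebellum included (6.44 against 5.50 RPKM). In Mbd5+/GT mice, with all exonic bases, Mbd5 was the lowest member in each region, at 2.35 RPKM against 2.57 for Mbd4 in cortex and 1.84 against 1.85 in striatum, where the pair did not differ beyond its spread (exact sign-flip adjusted p = 0.84).

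**Figure D1:**
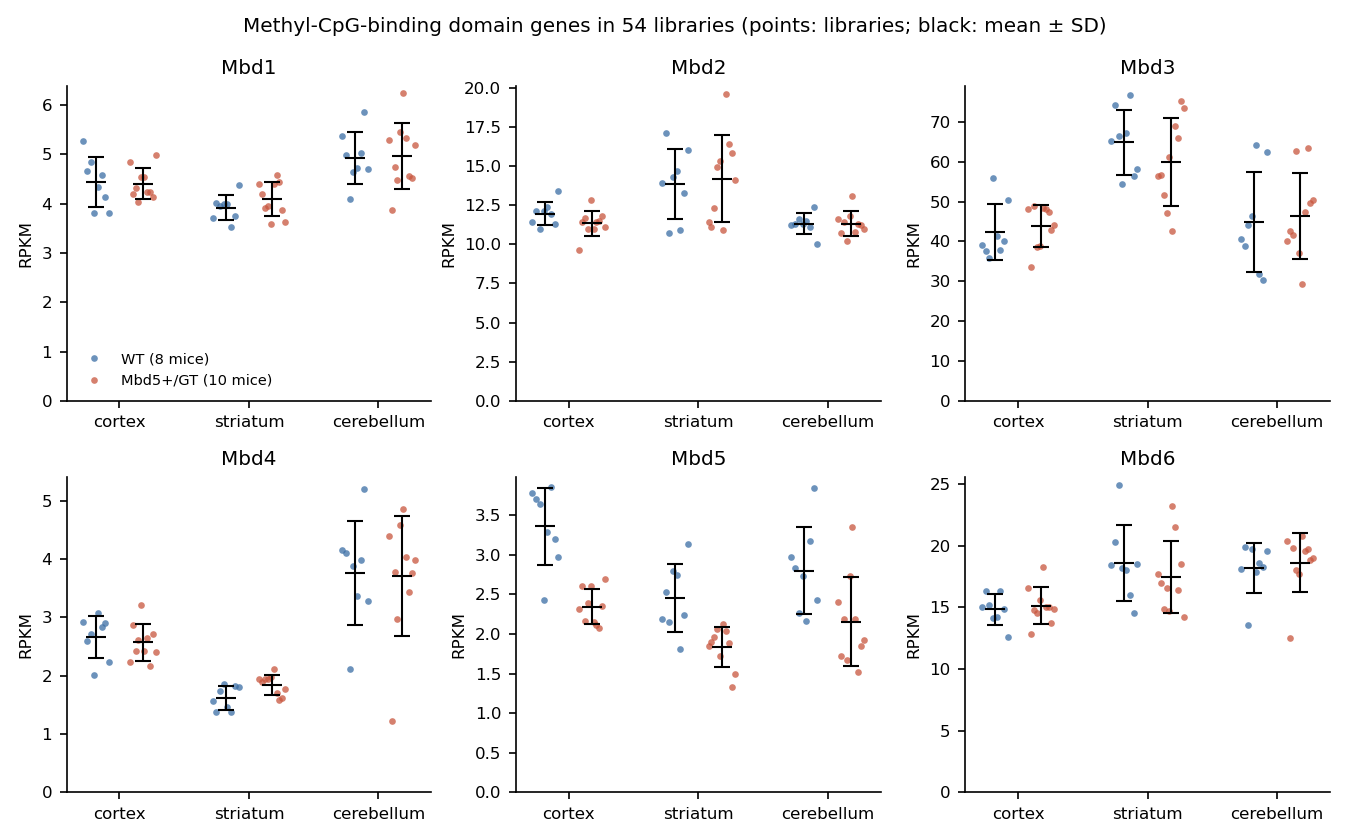
RPKM (y axis, from 0) of each member in cortex, striatum and cerebellum (x axis), with 1 point per library, WT in blue and Mbd5+/GT in red, and mean ± SD in black. For Mbd5 the mean of the red points lies below that of the blue points in each region, with overlapping ranges (2.07 to 2.70 against 2.43 to 3.85 RPKM in cortex).

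Which members differ between regions was asked first in WT mice, by edgeR's quasi-likelihood test over 19219 genes. Mbd4, the DNA glycosylase, showed the widest differences. Its WT level ran from 1.37 to 1.85 RPKM in striatum (median 1.65), from 2.02 to 3.07 in cortex (median 2.78) and from 2.12 to 5.20 in cerebellum (median 3.94), so that no striatum library reached the lowest cortex library. Cerebellum exceeded striatum 2.25-fold for Mbd4 (log2 difference 1.17, 95% interval 0.90 to 1.44, adjusted p = 2.6e-08) and cortex 1.41-fold (log2 0.49, 0.23 to 0.76, adjusted p = 0.0020). Without the libraries low in their own markers these log2 differences were 1.24 and 0.58.

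The NuRD subunits Mbd2 and Mbd3 were both highest in striatum. Mbd3 ranged from 54.4 to 76.6 RPKM in WT striatum (median 65.8), against 35.9 to 55.9 in cortex (median 39.6) and 30.3 to 64.1 in cerebellum (median 42.4). The striatum range overlapped both others. Striatum was 1.57-fold above cortex (log2 0.65, 0.35 to 0.94, adjusted p = 0.00086) and 1.48-fold above cerebellum (adjusted p = 0.0012) for Mbd3. For Mbd2 the excess of striatum was 1.19-fold over cortex (adjusted p = 0.016) and 1.26-fold over cerebellum (adjusted p = 0.0011). The Mbd2 difference from cortex lost its call without WT mouse M752 (log2 0.20) and was larger, at 0.35, without the libraries low in striatal markers.

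Mbd5 was highest in cortex, where WT libraries ran from 2.43 to 3.85 RPKM (median 3.46), and lower in striatum, from 1.81 to 3.14 RPKM (median 2.38). The log2 difference of striatum from cortex was -0.42 (-0.67 to -0.18, adjusted p = 0.0053), and the ranges overlapped. Without the libraries low in their own markers this difference was -0.33 (-0.57 to -0.09, edgeR adjusted p = 0.022). In cerebellum the level was intermediate, at 2.17 to 3.84 RPKM (median 2.78). It differed from neither region at this threshold, with a log2 difference from cortex of -0.27 (-0.51 to -0.02, adjusted p = 0.058) and from striatum of 0.16 (-0.09 to 0.40, adjusted p = 0.25). The difference from cortex passed the threshold without WT mouse M757 or WT mouse M762, within a range of -0.36 to -0.20 over mice left out.

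Mbd6 showed another order, with cortex lowest. Its WT cortex libraries held 12.6 to 16.3 RPKM (median 15), striatum 14.5 to 24.9 (median 18.3) and cerebellum 13.6 to 19.9 (median 18.5). Striatum exceeded cortex by 0.36 log2 units (0.17 to 0.54, adjusted p = 0.0024) and cerebellum exceeded cortex by 0.29 (0.11 to 0.48, adjusted p = 0.0079), while cerebellum and striatum differed by -0.07 (-0.25 to 0.12), a value that became 0.03 without the libraries low in their own markers. Mbd1, the SETDB1 partner, was higher in cerebellum than in striatum by 0.30 log2 units (0.14 to 0.45, adjusted p = 0.0013). Against cortex it differed by 0.14 in cerebellum and by -0.15 in striatum, neither past the threshold, although the striatum value passed without WT mouse M765 (log2 -0.20). The cerebellum value became 0.18 (adjusted p = 0.034) without the libraries low in their own markers, and WT mouse M754 alone had the same influence (log2 0.21 without it).

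In all, 2 of 6 members differed between cerebellum and cortex, where 56.5% of all genes tested were called, 5 of 6 between striatum and cortex, where 49.1% were called, and 4 of 6 between cerebellum and striatum, where 66.2% were called. These shares are of 6 genes, where regional differences are common among all genes. The same contrasts in Mbd5+/GT mice called 3, 4 and 4 members. Among members called in WT mice, Mbd6 in striatum against cortex was not called in Mbd5+/GT mice (log2 0.21, adjusted p = 0.063).

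**Figure D2:**
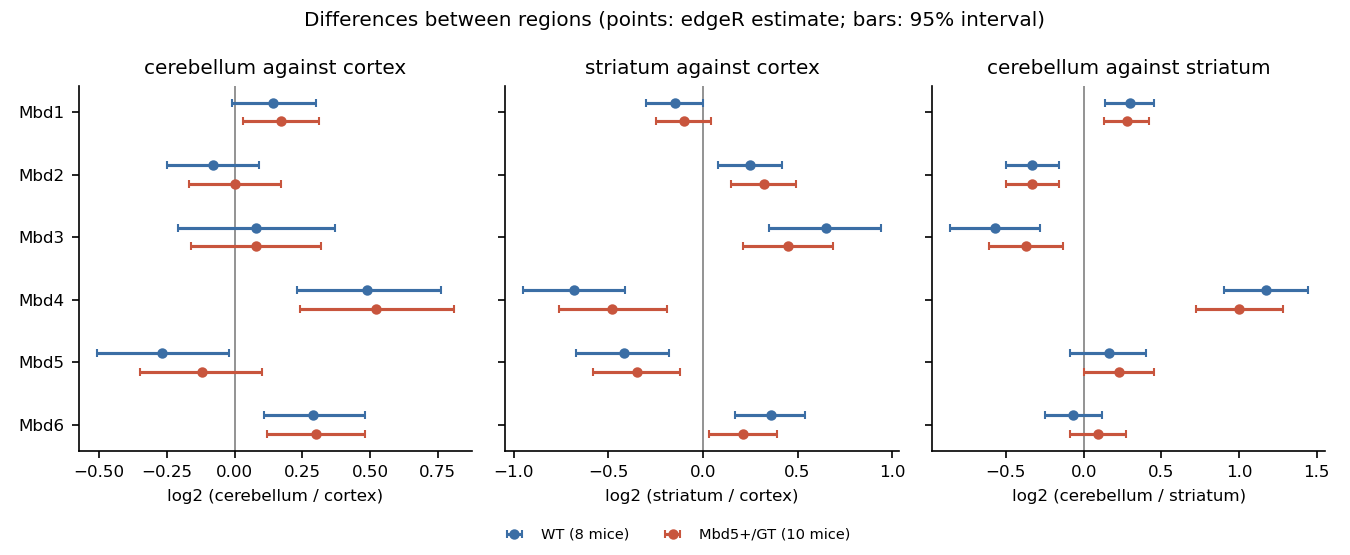
Log2 ratio between regions (x axis) for each member (rows), in WT mice (blue, 8 mice) and Mbd5+/GT mice (red, 10 mice), as edgeR estimates with 95% intervals. Mbd4 lies farthest from 0, at 1.17 for cerebellum against striatum in WT mice, and the intervals of the 2 genotypes overlap for each member.

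The check of the trapped gene came next. Mbd5 was lower in Mbd5+/GT mice in each of the 3 regions. In cortex the 10 Mbd5+/GT libraries held 2.07 to 2.70 RPKM (median 2.33) and the 8 WT libraries 2.43 to 3.85 (median 3.46). A single WT library, of mouse M757 at 2.43 RPKM, overlapped the Mbd5+/GT range, and 7 of 10 Mbd5+/GT libraries lay below every WT library. In striatum the ranges were 1.33 to 2.13 RPKM (median 1.90) and 1.81 to 3.14 (median 2.38), and 3 of 10 lay below all WT libraries. The overlap in striatum came from WT mouse M761, one of the libraries low in striatal markers. Without it and mouse M754, WT striatum began at 2.19 RPKM and 10 of 10 Mbd5+/GT libraries lay below it. Cerebellum was the least separated, with 1.52 to 3.35 RPKM (median 2.06) against 2.17 to 3.84 (median 2.78), and 5 of 10 libraries lay below all WT libraries.

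Mean Mbd5 in Mbd5+/GT mice was 69.9% of the WT mean in cortex (2.35 ± 0.226 against 3.36 ± 0.487 RPKM), 75.0% in striatum (1.84 ± 0.255 against 2.45 ± 0.433) and 76.9% in cerebellum (2.16 ± 0.558 against 2.80 ± 0.549). In the edgeR fit with surrogate variables, which absorb variation shared by many genes, Mbd5 fell by 28.9% in cortex (log2 -0.49, 95% interval -0.59 to -0.39, adjusted p = 0.00012). It fell by 29.6% in striatum (log2 -0.51, -0.61 to -0.41, adjusted p = 9.4e-05). In cerebellum it fell by 21.2% (log2 -0.34, -0.44 to -0.24, adjusted p = 0.0091). Without the libraries low in their own markers, the log2 values were -0.51 in striatum and -0.37 in cerebellum. In cortex, summed striatal markers ran from 24.8 to 275 RPKM in WT mice (median 185) and from 38.7 to 186 in Mbd5+/GT mice (median 82.5). Choroid plexus markers ran from 6.61 to 187 RPKM (median 39.4) and from 2.52 to 1023 (median 231) in cortex. Their part in the Mbd5 difference was not tested.

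An exact permutation test of log2 CPM over mice, which uses no surrogate variables, gave two-sided unadjusted p = 0.00011 in cortex, 0.0014 in striatum and 0.021 in cerebellum over 43758 assignments. Restricted to the 3500 assignments that keep each litter's numbers, p was 0.00057, 0.0034 and 0.026. The exact test gave -0.51 in striatum (p = 0.00012) and -0.40 in cerebellum (p = 0.028) without the libraries low in their own markers. By litter the log2 difference of Mbd5 was negative in 9 of 9 cases. For litters 1, 2 and 3 it was -0.53, -0.37 and -0.50 in cortex. The striatum values were -0.19, -0.91 and -0.33, and those of cerebellum -0.27, -0.39 and -0.36. Litter 2 rests on a single WT mouse.

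By edgeR, the adjusted call over all genes was lost without the surrogate variables. With none, Mbd5 had log2 -0.51, -0.43 and -0.39 in cortex, striatum and cerebellum, with edgeR adjusted p = 0.057, 0.83 and 1.0. With litter and sex as covariates in their place, the values were -0.48, -0.43 and -0.31, again short of the threshold. Leaving out WT mouse M759 ended the call in cerebellum (log2 -0.34, edgeR adjusted p = 0.057), and leaving out litter 2 ended it in striatum (log2 -0.49) and cerebellum (log2 -0.29).

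None of the other 5 members passed the test for genotype in any region. Mbd5 was thus 1 of 6 members called in each region, against 0.0107% of 18661 genes in cortex, 0.00539% of 18546 in striatum and 0.00551% of 18160 in cerebellum. These shares rest on 2, 1 and 1 genes called by edgeR, and Mbd5 is itself among them in each region. Mbd5 is the trapped gene, so its call and these shares say nothing about the family. DESeq2 called 62, 3 and 3 genes, and edgeR without WT mouse M757 called 485 of 18454 genes in striatum. At an unadjusted p under 0.05 Mbd5 was again the only member, while 8.47%, 7.44% and 2.75% of genes reached that level.

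Mbd6, the relative of Mbd5, did not pass the test in any region. Its Mbd5+/GT libraries ranged from 12.8 to 18.3 RPKM in cortex (median 14.9; WT 12.6 to 16.3, median 15). In striatum they ranged from 14.2 to 23.2 (median 16.8; WT 14.5 to 24.9, median 18.3), and in cerebellum from 12.5 to 20.8 (median 19.3; WT 13.6 to 19.9, median 18.5). The groups overlapped over nearly their whole range in each region. Mbd6 differed by 0.03 log2 units in cortex (-0.08 to 0.14), -0.04 in striatum (-0.26 to 0.17) and 0.02 in cerebellum (-0.07 to 0.10), with adjusted p of 0.93, 0.97 and 1.0.

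These intervals bound a rise of Mbd6 at 10.2% of its WT level in cortex, 12.6% in striatum and 7.49% in cerebellum. Per length, Mbd6 was the more abundant gene, so the bounds correspond to 1.51, 2.34 and 1.36 RPKM, while the difference of mean Mbd5, Mbd5+/GT minus WT, was -1.01, -0.612 and -0.645 RPKM. With all exonic bases as the length, a rise of Mbd6 as large in RPKM as the fall of Mbd5 thus lay inside each interval. This depends on the length. With the longest transcript the bounds were 1.57, 2.43 and 1.42 RPKM and the Mbd5 differences -2.32, -1.41 and -1.48 RPKM. By these values such a rise lay inside the interval in striatum alone. The Mbd6 bounds come from the fit with surrogate variables, whereas the Mbd5 differences are of group mean RPKM. In cerebellum the 2 sides were close, at 1.42 and -1.48 RPKM, so its outcome can turn on this choice. The bounds also moved with the fit, up to 15.8% for cortex when litter and sex were covariates. They reached 26.5% in striatum without litter 2 and 15.5% in cerebellum with no surrogate variables. Mbd6 in cortex was 0.12 without WT mouse M754 (edgeR adjusted p = 0.41). With the longest transcript and the same Mbd5 differences, the cerebellum outcome turned. Such a rise lay inside with no surrogate variables (2.94 RPKM), with litter and sex (2.89) and without litter 2 (2.03). It stayed outside without the libraries low in their own markers (1.35). In cortex it lay inside with litter and sex (2.44), but not with no surrogate variables (1.94). Without litter 2 the cortex bound was 2.31 RPKM, beside an Mbd5 difference of -2.32 RPKM that includes litter 2. The 2 sides were too close there to place the rise inside or outside. A proportional rise of the size of the Mbd5 fall, on the log2 scale, lay outside each of the 3 intervals of the fit with surrogate variables.

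**Figure D3:**
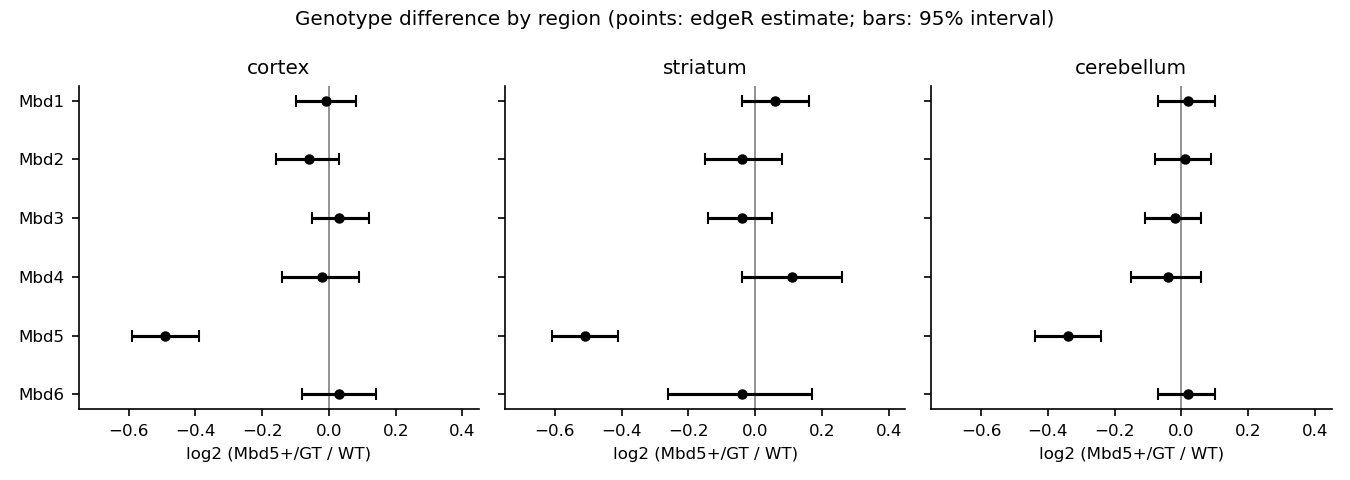
Log2 ratio of Mbd5+/GT to WT (x axis) for each member (rows) in cortex, striatum and cerebellum (panels), as edgeR estimates with surrogate variables and 95% intervals. The Mbd5 intervals, -0.59 to -0.39, -0.61 to -0.41 and -0.44 to -0.24, lie below 0, and the intervals of the other 5 members include 0.

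Mbd4 in striatum was the nearest to a difference among the others. Its Mbd5+/GT libraries ran from 1.58 to 2.12 RPKM (median 1.91) and its WT libraries from 1.37 to 1.85 (median 1.65), with 6 of 10 Mbd5+/GT libraries above every WT library. The exact permutation test gave a log2 difference of 0.19 and two-sided unadjusted p = 0.025, 1 of 18 such tests over members and regions, and p = 0.035 within litters. The edgeR fit gave 0.11 (-0.04 to 0.26, adjusted p = 0.77). Without the libraries low in striatal markers the exact test gave 0.17 with p = 0.056. By litter the sign was mixed, at 0.37, -0.12 and 0.25.

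The remaining members lay closer to 0 in the fit with surrogate variables. For Mbd1, log2 differences were -0.01 in cortex, 0.06 in striatum and 0.02 in cerebellum. Mbd2 gave -0.06, -0.04 and 0.01, and Mbd3 gave 0.03, -0.04 and -0.02. The 95% intervals of these 9 differences lay between -0.16 and 0.16. In other fits Mbd3 in striatum lay farther from 0, at -0.13 (-0.36 to 0.11) with no surrogate variables and -0.21 (-0.45 to 0.02, edgeR adjusted p = 0.55) with litter and sex as covariates, beside 0.17 and 0.19 for Mbd4. Mbd4 differed by -0.02 in cortex and by -0.04 in cerebellum. Summed over the 6 members, expression was 79.5 ± 5.54 RPKM in WT and 79.6 ± 5.89 RPKM in Mbd5+/GT cortex. For striatum the sums were 105 ± 8.74 and 99.3 ± 12.5 RPKM, and for cerebellum 85.8 ± 11.6 and 87.2 ± 9.79 RPKM. In WT cortex Mbd3 made up 52.9% of this sum and Mbd5 4.27% with all exonic bases, and 48.0% and 7.42% with the longest transcript.

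Whether the genotype difference varied between regions was tested directly in 1 edgeR fit of all 54 libraries. For Mbd5 the difference of the effect was 0.14 between cerebellum and cortex (-0.20 to 0.47), 0.10 between striatum and cortex (-0.23 to 0.44) and 0.04 between cerebellum and striatum (-0.30 to 0.37), adjusted p = 1.0, 0.99 and 1.0. For Mbd6 the values were 0.00, -0.12 and 0.12. None of the 6 members passed in any of the 3 contrasts by edgeR or by DESeq2, 0 reached an unadjusted p under 0.05 by either, and 0.00% of 20477 genes passed at the adjusted threshold. At an unadjusted p under 0.05, 1.11%, 4.22% and 2.68% of genes were counted in the 3 contrasts in the order above. Without the libraries low in their own markers 0 of 6 members passed, and the Mbd5 values were 0.13, 0.01 and 0.12. The intervals are wide, and the upper bound of 0.47 for cerebellum against cortex is close in size to the Mbd5 difference within cortex.

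Members were then compared across mice within each region and genotype, which gave 30 relations of Mbd5 with another member on the log2 CPM scale. Mbd3 ran against Mbd5 in each of the 6 groups, with Pearson's r from -0.54 to -0.93, and Mbd1 ran with it, with r from 0.35 to 0.91. The smallest p was in Mbd5+/GT cerebellum (n = 10), where Mbd3 had r = -0.91 (permutation p = 0.0003, adjusted p = 0.009) and Spearman's rho of -0.89 (permutation p = 0.0012, adjusted p = 0.012). In WT cortex (n = 8), r was -0.93 for Mbd3 (exact permutation p = 0.0016, adjusted p = 0.017) and rho was -0.76 (exact permutation p = 0.037, adjusted p = 0.083).

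Of the 30 relations, 11 passed at an adjusted p under 0.05 by permutation of Pearson's r and 13 at an unadjusted one, and 4 passed by Spearman's rho. Centred on litters, 3 passed, all in Mbd5+/GT cerebellum, where Mbd1 had r = 0.92, Mbd3 -0.93 and Mbd4 0.69. Without the 2 mice farthest from the median of Mbd5, only 1 passed, Mbd3 in Mbd5+/GT cortex with r = -0.90 (n = 8, exact permutation adjusted p = 0.042). For Mbd3 in Mbd5+/GT cerebellum r was then -0.77 and in WT cortex -0.65. Leaving out mice lowers n and the spread of Mbd5 by construction. Without the libraries low in their own markers, 12 passed. How many of all genes relate to Mbd5 as strongly within these groups was not counted. The numbers that passed thus have no background and are not shown to be particular to the family. Over the 54 libraries, genes outside the family reached r = 0.95 with Mbd5 and 0.97 with Mbd3.

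Mbd6 was not related to Mbd5 at the adjusted threshold in any group. Its r in WT and Mbd5+/GT mice was 0.68 and -0.37 for cortex, 0.14 and 0.37 for striatum, 0.36 and 0.38 for cerebellum, with exact or resampled permutation adjusted p between 0.14 and 0.76. By Spearman's rho, WT cortex came closer to the threshold, at 0.83 (n = 8, exact permutation p = 0.015, adjusted p = 0.058). Within Mbd5+/GT mice the sign was negative in cortex, where rho was -0.35 (n = 10, permutation adjusted p = 0.43), and positive in the other regions.

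**Figure D4:**
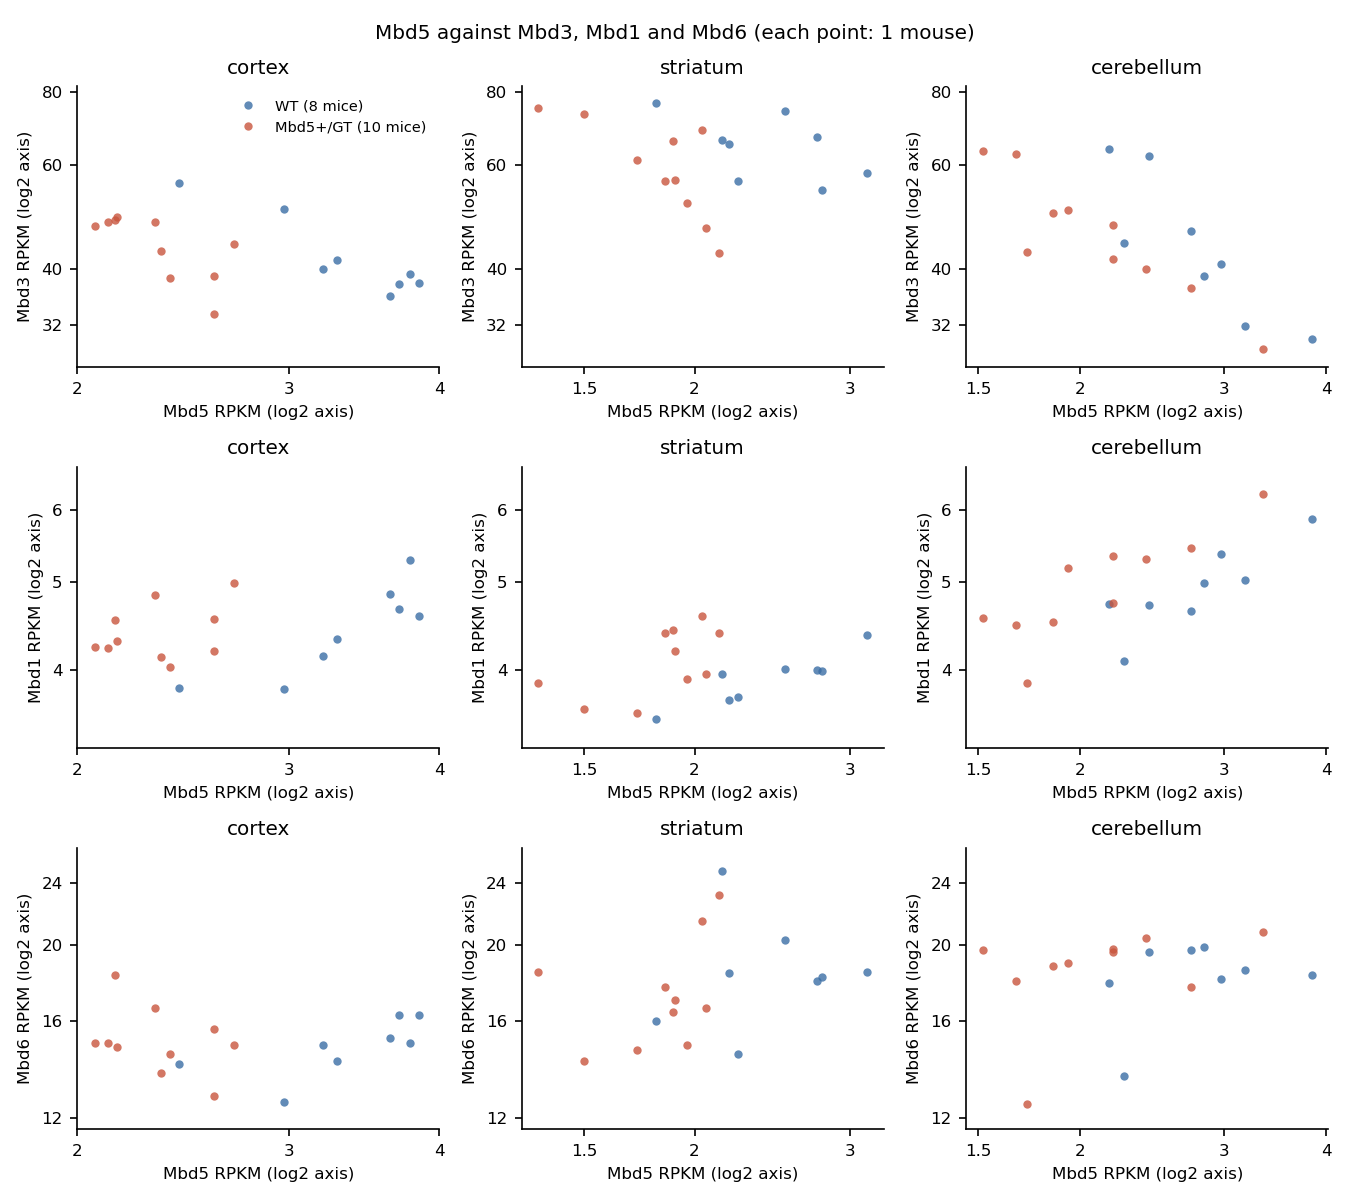
Mbd5 RPKM (x axis, log2 scale) against Mbd3, Mbd1 and Mbd6 RPKM (y axes, log2 scale) in each region, with 1 point per mouse, WT in blue and Mbd5+/GT in red. Mbd3 falls as Mbd5 rises in each panel of the top row, with r = -0.91 in Mbd5+/GT cerebellum, and for Mbd6 r lies between -0.37 and 0.68 over the 6 groups.

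Genes outside the family were also ranked. Among 12765 genes, ranked by the correlation of their deviations from group means over the 54 libraries (a description, since libraries share mice), those most like Mbd5 were Ash1l, a histone methyltransferase, Zzef1, and Mtr, methionine synthase, each with r = 0.95. Mbd3 was most like Timm13, a mitochondrial import chaperone (r = 0.97), Edf1 and Tex264 (both 0.96). For Mbd1 they were Sec16a (0.92), the chromatin remodeller Chd8 and the histone methyltransferase Kmt2b (both 0.91). Mbd4 lay closest to Mindy2 (0.94), the sodium channel gene Scn2a and Pik3r3 (both 0.93), Mbd6 to Gigyf1 (0.85), Rfx1 and Fbrs (both 0.84), and Mbd2 to St8sia3, Ebf1 and Elmod1 (each 0.80). Over the same libraries Mbd5 and Mbd3 had r = -0.81, Mbd5 and Mbd1 0.77, Mbd5 and Mbd4 0.59, and Mbd5 and Mbd6 0.29. What these deviations share was not tested.

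The partners of the family were examined as 49 further genes in the same fits, and 47 passed the filter on low counts in each region; Mbd3l1 and Mbd3l2, germline relatives of Mbd3, did not. None of the 47 changed with genotype in any region by edgeR or DESeq2 at an adjusted p under 0.05. Their median log2 difference was -0.03 for cortex, 0.03 for striatum and 0.01 for cerebellum, and that of all genes tested was -0.00, -0.01 and -0.00. By group, the 13 NuRD subunits and partners lay between -0.06 and 0.13 over the regions, and the 9 genes of the PR-DUB complex and its associates between -0.08 and 0.19. Of the other methyl-CpG-binding domain proteins, 4 were tested and lay between -0.05 and 0.10, and the 5 other readers of methylated DNA between -0.09 and 0.32. The 8 corepressor genes lay between -0.11 and 0.09, and the 8 genes that write, erase or repair methylated cytosine between -0.10 and 0.08.

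At an unadjusted p under 0.05 the edgeR fit counted 1, 1 and 0 of these genes in cortex, striatum and cerebellum, and DESeq2 2, 1 and 0. Those of the edgeR fit were Cdk2ap1, a NuRD subunit, in cortex (log2 0.12, 95% interval 0.01 to 0.22, edgeR adjusted p = 0.54) and Zbtb33, which encodes the methyl-CpG reader Kaiso, in striatum (0.32, 0.05 to 0.60, adjusted p = 0.63). Each is 1 of 47 genes, beside the 8.47% and 7.44% of all genes at that level, and Zbtb33 gave 0.23 (adjusted p = 0.88) without the libraries low in striatal markers. Bap1, the catalytic subunit of PR-DUB, singled out after its values were seen, differed by -0.04 in cortex, -0.08 in striatum and 0.00 in cerebellum.

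**Figure D5:**
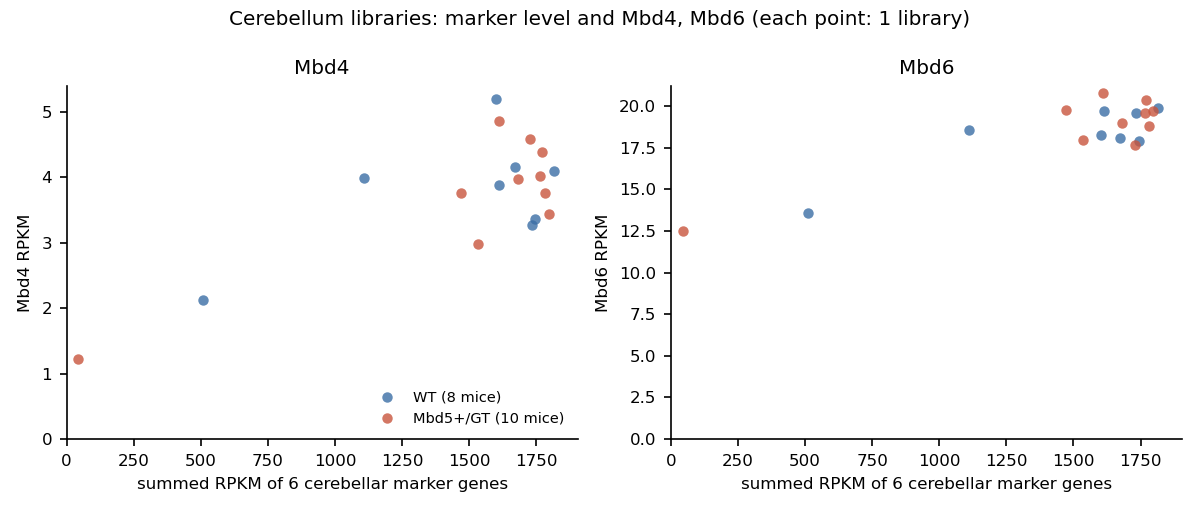
Summed RPKM of 6 cerebellar marker genes (x axis) against Mbd4 and Mbd6 RPKM (y axes) in the 18 cerebellum libraries, with 1 point per library, WT in blue and Mbd5+/GT in red. The 2 libraries at 44.3 and 509 RPKM of markers are also the lowest for Mbd4, at 1.23 and 2.12 RPKM, and for Mbd6, at 12.5 and 13.6 RPKM.

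Levels of Mbd4 and Mbd6 in cerebellum moved with the marker level in this way in the 2 libraries that stood apart. Mbd1 was also lowest in them, at 3.87 and 4.09 RPKM, the next library holding 4.48 RPKM. The part of the marker level in these values was not tested. Without those libraries, Mbd4 ranged from 2.98 to 5.20 RPKM and Mbd6 from 17.7 to 20.8 RPKM over both genotypes, and their genotype differences by edgeR were -0.00 and 0.02 log2 units.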

How the data were processed

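PolyA RNA from 3 brain regions of each mouse was sequenced. The deposited table holds whole-number read counts per Ensembl gene that the authors obtained with STAR 2.4.2 (FastQC 0.10.1 for quality) on GRCm38; the strand setting is not given in the sources used here. The 92 spike-in rows were left out of tests, and 46488 of 47069 gene IDs matched the annotation. Genes with over 4 counts in at least 8 libraries were tested with edgeR 4.0.16 (quasi-likelihood, TMM, Benjamini-Hochberg over all genes tested). Genotype was fitted per region with 4 surrogate variables in cortex and striatum and 2 in cerebellum (sva 3.50.0), region in WT mice, and their interaction over all libraries without them; DESeq2 1.42.0 was an alternative. RPKM used TMM factors over the 54 libraries and all exonic bases; log2 CPM used a prior count of 2. Exact tests permuted mice; resampling drew 100000 permutations. WT striatum included 2 libraries labelled as repeats. Libraries were low in their own markers where the summed level was under the region's median divided by 3. Members, lists and tests were chosen with earlier results of these data known; partners were named at an unadjusted p under 0.05, at most 4 per region. A marker and a partner gene are not reported here and were left out of the lists' sums and counts. Scripts were tested on simulated data. The 3 regions of a mouse share the animal: same-mouse deviations had median correlations of 0.165, 0.246 and 0.0923 for cortex and striatum, cortex and cerebellum, and striatum and cerebellum. Genotype p-values within a region rest on spread between mice, in the main fits on what the surrogate variables leave. Region and interaction p-values rest on spread between libraries, except where the mouse was a block. The test of order used differences between members within each library, across mice.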

Additional observations from a re-analysis of the deposited data

Results flagged for a closer look

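In 3 of 36 groups of members by region and genotype, a library lay farther from its neighbours than Dixon's 95% criterion allows; chance flags about 1 in 20 groups. All were cerebellum libraries already named as low in cerebellar markers. Mbd4 was 1.23 RPKM in Mbd5+/GT mouse M755, where the next lowest library had 2.98 RPKM. Mbd6 was 12.5 RPKM in the same library, next to 17.7 RPKM. Mbd6 was 13.6 RPKM in WT mouse M754, next to 17.9 RPKM. The part of tissue composition in these values was not tested.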

How the results depend on the processing

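With the mouse as replicate block, 2, 5 and 4 members differed between WT cerebellum and cortex, striatum and cortex, and cerebellum and striatum, and 0 in genotype effect between regions, as without it; the block changed no call. With no surrogate variables, or with litter and sex as covariates, 0 members passed for genotype in cortex, striatum or cerebellum; without litter 2, 0 in striatum and cerebellum; with 1 surrogate variable fewer, 0 in cerebellum. Without single mice the count was 0 to 1 in cerebellum, the call being lost without mouse M759. Of the relations of Mbd5, 3 passed when centred on litters and 1 without the 2 farthest mice. The cause was not tested. Signs turned for members near 0 that passed in neither setting. For genotype, Mbd1 in cortex became 0.04 with no filter, 0.05 with at least 10 counts in every library, 0.03 with litter and sex and 0.04 without litter 2, and Mbd4 in cortex 0.01 with at least 10 counts. In striatum Mbd2 became 0.01 and Mbd3 0.02 with at least 10 counts, and Mbd2 0.02 with no or 1 fewer surrogate variable. In cerebellum Mbd2 became -0.01 and Mbd3 0.04 with no or 1 fewer surrogate variable, Mbd1 -0.01 with 1 fewer, and Mbd2 -0.01 without litter 2. Between WT cerebellum and striatum Mbd6 became 0.03 without the libraries low in their own markers, an alternative chosen after seeing the data, and 0.09 in Mbd5+/GT mice. Without single mice, Mbd1 in cortex ran from -0.04 to 0.06, Mbd4 in cortex from -0.06 to 0.02, Mbd2 in striatum from -0.06 to 0.03 (-0.07 without the 2 libraries labelled as repeats), Mbd6 in striatum from -0.11 to 0.01, Mbd2 in cerebellum from -0.01 to 0.03, and between WT regions Mbd3 (cerebellum and cortex) from -0.02 to 0.14 and Mbd6 (cerebellum and striatum) from -0.11 to 0.06. DESeq2, its size factors and the other filter settings changed no count of members. The lowest count of a member in any library was 178.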
